A study of Zea mays with 12 samples.

Results

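A set of 14 probe sets on a maize expression array was high in both reciprocal hybrids, in endosperm taken 13 days after pollination. Both hybrid means were at least 0.8 times that of the higher-expressing inbred parent, and both lay above it in 4 of the 14. The probe sets were chosen from the measured values. Each array was scaled to a median signal of 160, and the geometric mean of 3 arrays was taken for each genotype. A probe set was kept when the larger of the B73 and Mo17 means was 200 or more, that mean was at least 2.5 times the other, all 3 arrays of one inbred lay above those of the other, and both hybrid means were at least 0.8 times the higher inbred mean. This left 14 of 17621 probe sets, and 965 met the conditions on the inbreds alone. The groups were the hybrids B73xMo17 and Mo17xB73 and the inbreds B73 and Mo17, with 3 arrays each and 12 in all. The plants were grown in the field with no transgene, mutant allele or treatment named, and each array measured RNA of endosperms pooled over 6 ears. The growth protocol gives 36 endosperms in a pool, whereas the design text gives 5 from each ear. Crosses were made on 3 dates, each covering all 4 genotypes, and the replicate number stands for the date.

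B73 and Mo17 are inbred lines from different heterotic groups of maize, and their cross is a standard model of hybrid vigour. The endosperm is the tissue of the kernel that stores starch and zein protein, and it receives 2 copies of the mother's genome and 1 of the father's, so reciprocal hybrids carry the same alleles in different doses. A gene whose alleles each add their share gives the hybrid a level between the parents that lies nearer to the mother, and this weighted value is called the dosage mean here. A hybrid at the level of the higher parent is described as showing high-parent dominance. A gene is called imprinted when the expression of an allele depends on whether it came from the mother or the father. By maize convention the female parent is written first in a cross; the labels do not state it, so mother and father below follow the convention. The values describe pools of whole endosperm, in which fewer cells of a type and less RNA per cell cannot be told apart.

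The signal is the MAS5 summary of the Affymetrix probe set, which is not comparable between probe sets, so levels of a probe set are compared across genotypes. Sums over a marker list are likewise compared across genotypes only, and the brightest probe sets weigh most in them. Brightest and dimmest refer to signal, not to the amount of transcript. Median signals before scaling lay between 127 and 178. The B73xMo17 arrays of replicates 1 and 2 were dim, with scaling factors of 1.21 and 1.26, against 0.90 to 1.05 for the other arrays. Endosperm was recognised from its markers: sh2, a subunit of the enzyme that supplies ADP-glucose for starch, had between 13672 and 18576 on every array. All 7 endosperm markers averaged lower in Mo17 than in B73. The gap was smaller for sh2 (14259 in Mo17, 16916 in B73), bt2 (9420 and 11115) and the zein gz27 (9664 and 10253). It was larger for the zeins dzs18 and gz50, wx1 and o2, and dzs18 averaged 80.8 in Mo17, against 15262 in B73. Among markers of the embryo, glb1 and ole1 were measured on every array, mlg3 read between 23.2 and 261, and lec1 was at or below 8.43. The embryo sums lay between 2907 and 4720. The aleurone markers vp1 and c1 summed to between 56.9 and 106, and those of green tissue to between 181 and 357. The sums of the endosperm markers and of the basal transfer layer, the cells that take up sugar from the mother plant, are given beside the reciprocal comparison below. The number of arrays limits the precision, since the values carry no counts.

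Among the 965 probe sets that met the conditions on the inbreds, the hybrid level usually lay between the parents. The median ratio of the hybrid to the higher inbred was 0.713 in the hybrid whose mother was the higher inbred, where the median dosage mean was 0.739. In the hybrid whose father was the higher inbred the median ratio was 0.443 and the median dosage mean 0.479. The limit of 0.8 was reached by 245 probe sets (25.4%) in the first of these hybrids, by 23 (2.38%) in the second, and by the 14 members (1.45%) in both. With an inbred ratio of 2.5, the smallest allowed, the dosage mean itself stands at 0.8 of the higher inbred when that inbred is the mother, and at 0.6 when it is the father. The mirrored choice asked for both hybrids at or below the lower inbred mean divided by 0.8. It found 0 probe sets, but 4 without Mo17xB73 replicate 2, 1 without Mo17 replicate 1 and 1 at an inbred ratio of 2. As a ratio, the dosage mean lies further from that limit than from 0.8 of the higher inbred when that inbred is the mother. This need not hold when it is the father. Nothing is therefore read from this 0 beside the 14.

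**Figure D1:**
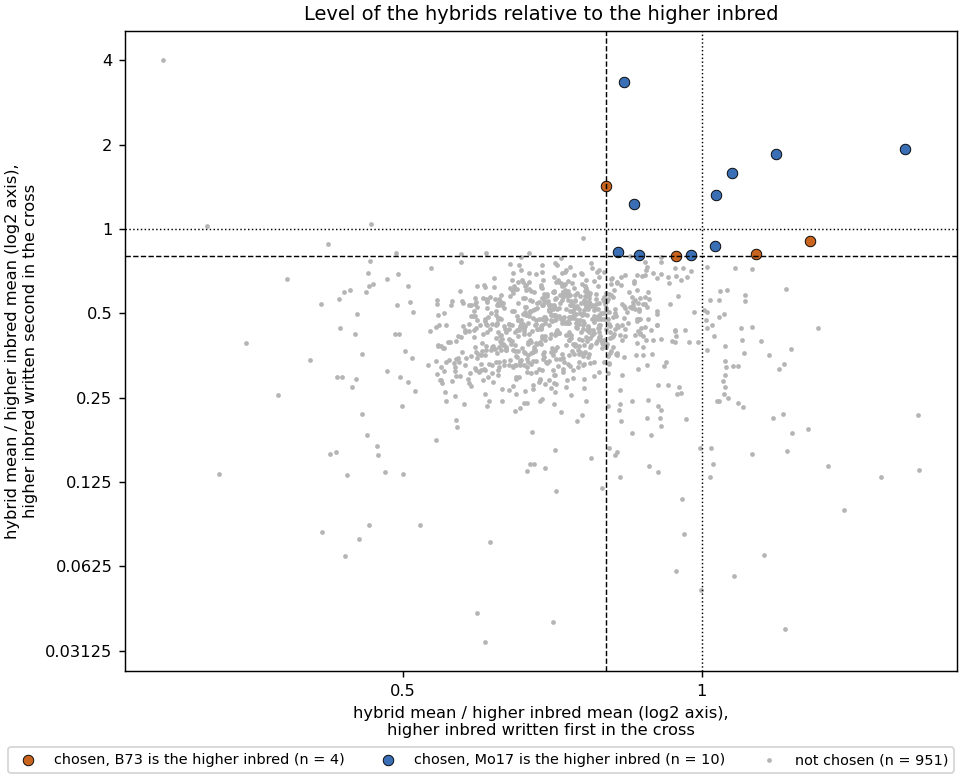
Each point is a probe set that met the conditions on the inbreds (n = 965); the x axis gives the hybrid whose first-written parent is the higher inbred and the y axis the other hybrid, both as a ratio to the higher inbred mean on log2 axes, with dashed lines at the limit of 0.8 and dotted lines at 1. The 14 chosen probe sets, 4 with B73 and 10 with Mo17 as the higher inbred, fill the upper right corner by construction, and the grey cloud lies lower on the y axis.

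Mo17 was the higher inbred for 10 members, 2.23% of the 448 probe sets with higher Mo17 that could have been chosen. B73 was the higher inbred for 4 members, 0.774% of 517. The 10 hold 3 probe sets named Zm.161 and 2 named Zm.6195, and those sharing a name may read overlapping sequence. The split of 10 to 4 therefore does not count independent cases. This split moved when arrays were left out or the inbred ratio was changed: B73 was the higher inbred for 1 of the 11 chosen without B73 replicate 1, 1 of the 11 without B73 replicate 2, 2 of the 9 without date 1, 6 of the 17 without Mo17xB73 replicate 2, and 12 of the 28 at an inbred ratio of 2. Their higher inbred means spanned 204 (Zm.6757.1.S1_at) to 9863 (Zm.3714.2.A1_at). The ratio of the higher to the lower inbred was smallest for Zm.13086.1.A1_at, at 2.69. The B73xMo17 mean lay above the higher inbred mean in 8 members, the Mo17xB73 mean in 6 and both in 4. The 3 arrays of B73xMo17 all lay above those of the higher inbred in 5 members (Zm.12.1.S1_at, the 3 Zm.161 members and Zm.4584.1.A1_at), and those of Mo17xB73 in 1 (Zm.6757.1.S1_at). For B73xMo17 this held in 1.68% of the 10708 probe sets bright enough to be tested and 0.725% of the 965, and for Mo17xB73 in 0.448% and 0.622% of them. Nothing is read from the members' larger share, since the hybrid means chose them. Every array of both hybrids lay above every array of the lower inbred in all 14 members.

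**Figure D2:**
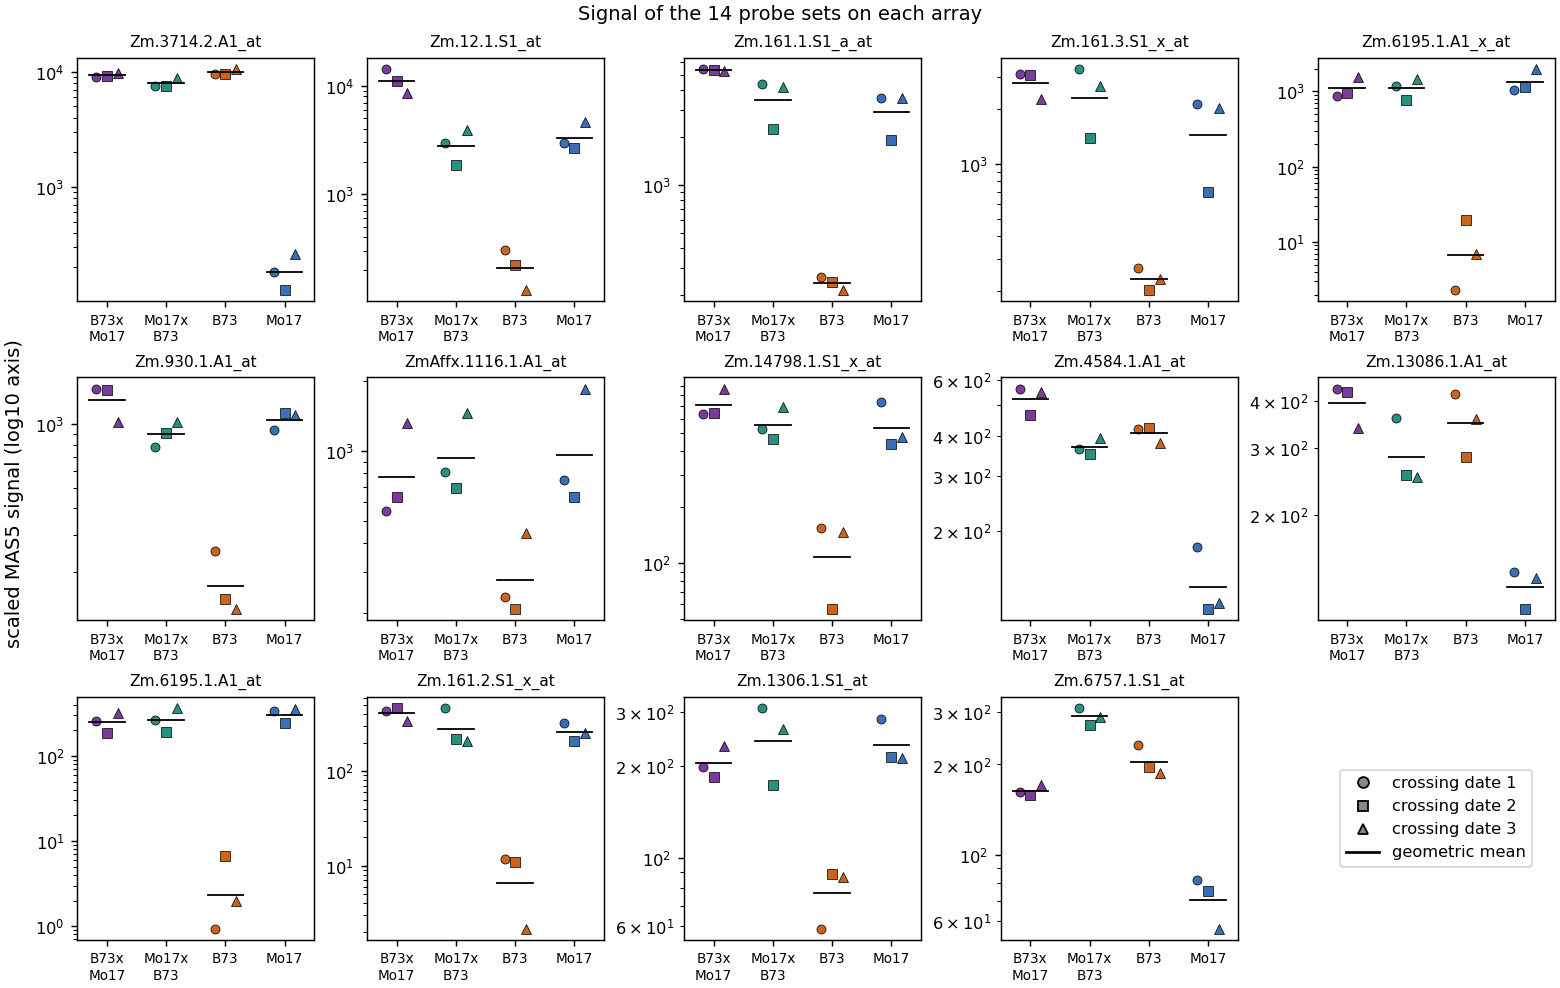
Scaled MAS5 signal of each member on each array (log10 axes, which differ between panels); symbols give the crossing date, colours the genotype, and bars the geometric mean of 3 arrays. Both hybrid means are at least 0.8 times the higher inbred mean in each panel by construction, and for Zm.12.1.S1_at the B73xMo17 arrays stand well above all the others.

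Zm.12.1.S1_at went furthest beyond its parents. Its signal was 14232, 11176 and 8663 on the B73xMo17 arrays and 2965, 1842 and 3911 on the Mo17xB73 arrays. In the inbreds it was 2952, 2664 and 4665 on the Mo17 arrays and 306, 221 and 131 on the B73 arrays. All 3 B73xMo17 arrays lay above all other arrays, whereas the Mo17xB73 and Mo17 arrays overlapped. The B73xMo17 mean of 11128 was 3.35 times the Mo17 mean of 3323 (log2 ratio 1.74 ± 0.33, SE from the limma fit with n = 3 each, as for all log2 ratios below), 53.8 times the B73 mean of 207, and 8.93 times the dosage mean. The Mo17xB73 mean of 2775 was 0.835 times the Mo17 mean and 1.21 times the dosage mean. Under the naming convention B73xMo17 has B73, the low inbred, as its mother, and received 1 copy of the Mo17 genome.

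The cluster number in a probe set's name groups the sequences it was designed from, and Zm.161 gave 3 members, all higher in Mo17 and with both hybrid means above it. Zm.161.1.S1_a_at had 5417, 5374 and 5309 on the B73xMo17 arrays and 4366, 2257 and 4169 on the Mo17xB73 arrays. Its inbred values were 3551, 1935 and 3563 on the Mo17 arrays and 263, 243 and 217 on the B73 arrays. The B73xMo17 arrays were the most even and the highest, and in both Mo17xB73 and Mo17 the array of date 2 was the lowest. The level was 1.85 times the Mo17 mean in B73xMo17 (log2 ratio 0.89 ± 0.25) and 1.19 times it in Mo17xB73 (log2 ratio 0.25 ± 0.25). Zm.161.3.S1_x_at showed the same low arrays of date 2, with 3094, 3078 and 2269 on the B73xMo17 arrays and 3304, 1385 and 2679.5 on the Mo17xB73 arrays. Its inbred arrays gave 2123, 696 and 2026 on the Mo17 arrays and 269, 203 and 233 on the B73 arrays. Its level was 1.93 times the Mo17 mean in B73xMo17 (log2 ratio 0.95 ± 0.38) and 1.60 times it in Mo17xB73 (log2 ratio 0.68 ± 0.38), the highest Mo17xB73 ratio among the members.

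Zm.161.2.S1_x_at was dimmer, with 436, 467 and 339 on the B73xMo17 arrays and 466, 220.0 and 209 on the Mo17xB73 arrays. Its Mo17 arrays read 324, 209 and 256, and its B73 arrays all lay below the floor of 14.9. Dimmer values were set to this floor for the limma fits and for folds given as at least. The choice and the printed means used the values without the floor. The level was 1.59 times the Mo17 mean in B73xMo17 (log2 ratio 0.66 ± 0.27) and 1.07 times it in Mo17xB73 (log2 ratio 0.10 ± 0.27). Against the floor, the Mo17 mean was at least 17.3-fold higher than that of B73. The Mo17xB73 arrays overlapped those of Mo17, and the B73xMo17 arrays lay above them. A further probe set of the cluster, Zm.161.2.S1_a_at, had means of 147 in B73xMo17, 80.5 in Mo17xB73, 105 in Mo17 and 6.45 in B73. It was too dim for the choice, and its B73 mean lay below the floor. Its ratios to Mo17 were 1.40 in B73xMo17 and 0.768 in Mo17xB73. The names of these probe sets end in _a_at or _x_at, which in Affymetrix naming marks probes shared among transcripts of a gene or matching other sequences, so the 3 members may read overlapping transcripts and are not independent.

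Zm.14798.1.S1_x_at was the other member with both hybrid means above the higher inbred. It had 634, 642 and 871 on the B73xMo17 arrays and 528, 465 and 689 on the Mo17xB73 arrays. In the inbreds it had 733, 439 and 475 on the Mo17 arrays and 154, 56.4 and 147 on the B73 arrays. The arrays of both hybrids overlapped those of Mo17 and stood above those of B73. The level was 1.32 times the Mo17 mean in B73xMo17 (log2 ratio 0.40 ± 0.33) and 1.03 times it in Mo17xB73 (log2 ratio 0.05 ± 0.33). Zm.14798.1.S1_at, with the same stem but without the _x_at mark, had means of 155 in B73xMo17, 120.0 in Mo17xB73, 146 in Mo17 and 19.3 in B73. There B73xMo17 stood above Mo17 as in the member, but Mo17xB73 stood below it, at 0.824 times its mean. Another sequence of the cluster went the opposite way between the inbreds. Zm.14798.2.A1_at averaged 1605 in B73xMo17, 918 in Mo17xB73, 2098 in B73 and 22.7 in Mo17, a 92.2-fold higher level in B73. Zm.14798.2.A1_a_at was 2.23-fold higher in B73. Whether the probes match the alleles of the inbreds equally well was not tested, here or for the other members.

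**Figure D3:**
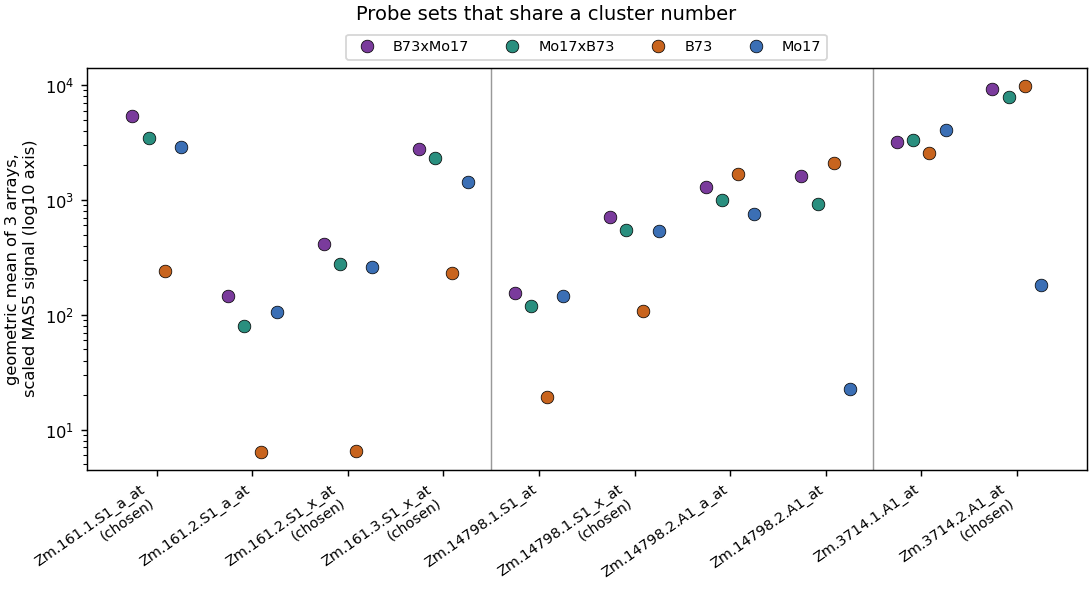
Geometric mean of 3 arrays per genotype (scaled MAS5 signal, log10 axis) for the probe sets of clusters Zm.161, Zm.14798 and Zm.3714, with members marked as chosen. All Zm.161 probe sets are low in B73, whereas within Zm.14798 and Zm.3714 the order of B73 and Mo17 differs between probe sets.

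Of the 4 members with B73 as the higher inbred, Zm.3714.2.A1_at was by far the brightest and had the largest inbred ratio, 53.8. Its signal was 9012, 9211 and 9669 on the B73xMo17 arrays and 7532, 7491 and 8768 on the Mo17xB73 arrays. In the inbreds it was 9625, 9478 and 10518 on the B73 arrays and 184, 127 and 264 on the Mo17 arrays. The B73xMo17 arrays overlapped those of B73, while all Mo17xB73 arrays lay below them. The level was 0.942 times the B73 mean in B73xMo17 (log2 ratio -0.09 ± 0.19) and 0.802 times it in Mo17xB73 (log2 ratio -0.32 ± 0.19). The dosage mean of Mo17xB73, which under the convention has 1 copy of the B73 genome, was 3410.2, and the measured mean was 2.32 times that. Signals this high lie toward the top of the array's range, where the brightest probe sets read between 15437 and 21712. Zm.3714.1.A1_at of the same cluster was higher in Mo17, with means of 3208 in B73xMo17, 3311 in Mo17xB73, 4036 in Mo17 and 2542 in B73.

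Zm.4584.1.A1_at had 565, 466 and 551 on the B73xMo17 arrays and 365, 352 and 394 on the Mo17xB73 arrays. Its inbred values were 422, 424 and 382 on the B73 arrays and 178, 113 and 119 on the Mo17 arrays. All B73xMo17 arrays lay above the B73 arrays, and the Mo17xB73 arrays overlapped them. The level was 1.29 times the B73 mean in B73xMo17 (log2 ratio 0.36 ± 0.16) and 0.905 times it in Mo17xB73 (log2 ratio -0.14 ± 0.16). Zm.13086.1.A1_at, with the smallest inbred ratio of the members, had 431, 422 and 339 on the B73xMo17 arrays and 361, 255 and 253 on the Mo17xB73 arrays. Its inbred arrays gave 416, 284 and 359 on the B73 arrays and 141, 113 and 136 on the Mo17 arrays. The arrays of each hybrid overlapped those of B73. Its level was 1.13 times the B73 mean in B73xMo17 (log2 ratio 0.18 ± 0.18) and 0.817 times it in Mo17xB73 (log2 ratio -0.29 ± 0.18).

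Zm.6757.1.S1_at was the dimmest member and ordered the hybrids the other way. It had 162, 158 and 171 on the B73xMo17 arrays and 309, 272 and 289 on the Mo17xB73 arrays. In the inbreds it had 232, 196 and 187 on the B73 arrays and 82.5, 75.3 and 56.5 on the Mo17 arrays. All 3 Mo17xB73 arrays lay above every other array, and all B73xMo17 arrays lay below those of B73. The level was 0.801 times the B73 mean in B73xMo17 (log2 ratio -0.32 ± 0.15) and 1.42 times it in Mo17xB73 (log2 ratio 0.51 ± 0.15). Mo17xB73, with B73 as the father under the convention, stood at 2.52 times its dosage mean, and B73xMo17 at 1.02 times its own.

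Cluster Zm.6195 gave 2 members that were almost without signal in B73. Zm.6195.1.A1_x_at had 873, 951 and 1562 on the B73xMo17 arrays and 1169, 756 and 1458 on the Mo17xB73 arrays. Its Mo17 arrays read 1048, 1122 and 1965, and 2 of its 3 B73 arrays were below the floor, with 19.8 on that of date 2. The arrays of date 3 were the highest in both hybrids and in Mo17. The level was 0.825 times the Mo17 mean in B73xMo17 (log2 ratio -0.28 ± 0.29) and 0.823 times it in Mo17xB73 (log2 ratio -0.28 ± 0.29), and the Mo17 mean was at least 80.6-fold higher than that of B73. Zm.6195.1.A1_at had 255, 186 and 319 on the B73xMo17 arrays and 267, 189.7 and 367 on the Mo17xB73 arrays. Its Mo17 arrays read 334, 242 and 355, and all 3 B73 arrays lay below the floor. Each hybrid overlapped Mo17, with 0.807 times its mean in B73xMo17 and 0.864 times it in Mo17xB73. Values below the floor have no order, so the Mo17 level is given only as at least 20.5-fold higher than that of B73. Both probe sets share a target name, so they may read overlapping sequence.

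The remaining members with higher Mo17 were Zm.930.1.A1_at, ZmAffx.1116.1.A1_at and Zm.1306.1.S1_at. Zm.930.1.A1_at had 1479, 1449 and 1023 on the B73xMo17 arrays and 783, 911 and 1022 on the Mo17xB73 arrays. Its inbred arrays gave 941, 1130.0 and 1102 on the Mo17 arrays and 253, 149.7 and 133 on the B73 arrays. The arrays of each hybrid overlapped those of Mo17, at 1.23 times the Mo17 mean in B73xMo17 and 0.854 times it in Mo17xB73. ZmAffx.1116.1.A1_at had 550.2, 632 and 1324 on the B73xMo17 arrays and 809.7, 694 and 1457 on the Mo17xB73 arrays. Its inbred arrays gave 752, 631 and 1862 on the Mo17 arrays and 232, 207 and 443 on the B73 arrays. The array of date 3 was the highest in every genotype, and both hybrids overlapped Mo17. Their means were 0.805 times that of Mo17 in B73xMo17 and 0.975 times it in Mo17xB73. Zm.1306.1.S1_at had means of 204 in B73xMo17, 241 in Mo17xB73, 234 in Mo17 and 76.8 in B73. Its ratios to Mo17 were 0.87 in B73xMo17 and 1.03 in Mo17xB73.

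Several members lay close to the limits. The lower of the hybrid ratios was 0.801 in Zm.6757.1.S1_at and 0.802 in Zm.3714.2.A1_at, the nearest inside the limit of 0.8. Just outside were Zm.16049.2.A1_x_at with 0.799777 and Zm.13692.1.A1_at with 0.793. On the inbred ratio, Zm.13086.1.A1_at (2.69) and Zm.6757.1.S1_at (2.89) were the nearest inside 2.5, and Zm.16508.1.S1_at (2.47) and Zm.16205.1.A1_at (2.30) the nearest outside. With a hybrid limit of 1.0 the choice kept 4 members, the 3 of Zm.161 and Zm.14798.1.S1_x_at, and with 0.7 it held 37 probe sets. Without the dim B73xMo17 arrays of replicates 1 and 2 it held 24, among them all 14.

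The difference between the reciprocal hybrids asks whether a member also responds to which inbred was the mother. The choice did not use this difference directly, but it placed the same lower limit under both hybrids, so one hybrid can lie far above the other only by exceeding the higher inbred, and nothing is read from the directions. By limma across all 10708 tested probe sets, with Benjamini-Hochberg adjustment and a threshold of 0.05, 3 of the 14 members differed, against 29.7% of all tested probe sets. B73xMo17 was higher in 2 of them (16.6% of tested probe sets) and lower in 1 (13.1%). Zm.12.1.S1_at was higher in B73xMo17 by 2.00 ± 0.33 on the log2 scale (SE, n = 3 each, limma adjusted p = 0.000906), a 4.01-fold difference with no overlap of arrays. Zm.4584.1.A1_at was higher in B73xMo17 by 0.51 ± 0.16 (limma adjusted p = 0.0275), again without overlap. Zm.6757.1.S1_at was lower in B73xMo17, with a log2 difference of -0.83 ± 0.15 (limma adjusted p = 0.00189) and no overlap.

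The other 11 members did not pass the test. Their log2 differences lay between -0.28 for ZmAffx.1116.1.A1_at and 0.64 for Zm.161.1.S1_a_at, and the widest error was -0.28 ± 0.44 for ZmAffx.1116.1.A1_at. With the crossing date as a replicate block, 5 members passed, against 43.6% over all that were tested. Of the 5, 4 had the higher level in B73xMo17, where the share over all was 24.1%, and 1 the lower, where it was 19.5%. The added members were Zm.13086.1.A1_at (limma adjusted p = 0.0123) and Zm.161.1.S1_a_at (limma adjusted p = 0.0151). Zm.12.1.S1_at passed under all 26 alternative settings and Zm.4584.1.A1_at failed in 10 of 26, among them the deposited values without scaling (limma adjusted p = 0.354), no filter (0.0639), and leaving out B73xMo17 replicate 1 (0.0851) or 3 (0.0757) or Mo17xB73 replicate 1 (0.0613) or 2 (0.0866). Without the dim B73xMo17 arrays of replicates 1 and 2, 1 array of that hybrid is left, and it is assumed to vary like the arrays of the other genotypes, which give the spread. In that fit Zm.12.1.S1_at passed, and Zm.6757.1.S1_at kept a log2 difference of -0.76 with a limma adjusted p of 0.0510. On the deposited scale 393 tested probe sets were higher and 2780 lower in B73xMo17, against 1777 and 1405 after scaling.

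**Figure D4:**
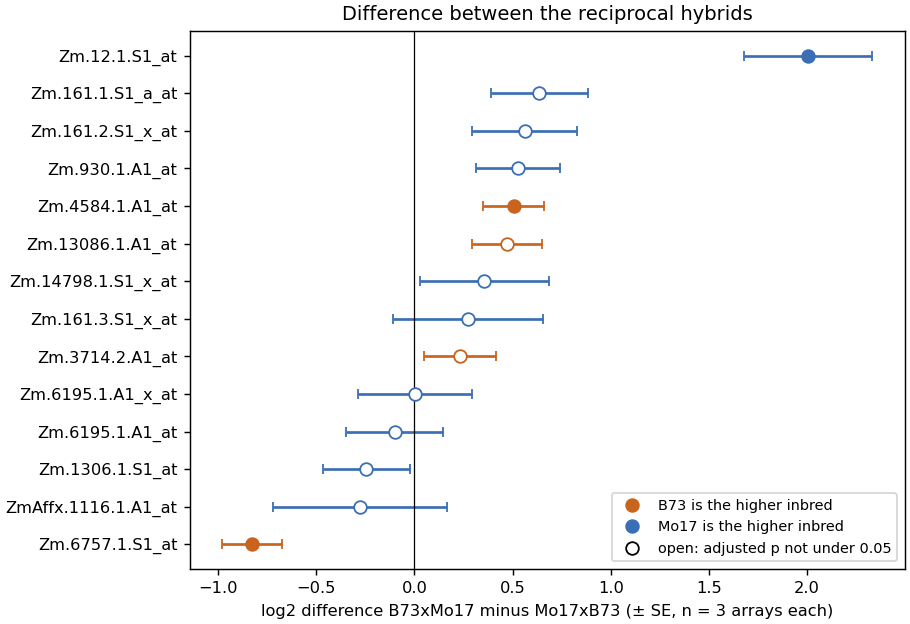
Log2 difference B73xMo17 minus Mo17xB73 for each member, with bars of 1 SE from the limma fit (n = 3 arrays each); filled points passed an adjusted p of 0.05 and colours give the higher inbred. Zm.12.1.S1_at stands apart at 2.00 and Zm.6757.1.S1_at at -0.83, while the open points lie within 1 log2 unit of 0.

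Turned by parent, the hybrid with the higher inbred as its mother was the higher one in 1 of the 3 called members (Zm.4584.1.A1_at), and the hybrid with the higher inbred as its father in 2 (Zm.12.1.S1_at and Zm.6757.1.S1_at). Of all tested probe sets, 27.9% were called in the first direction and 1.79% in the second, and of the 965 that met the conditions on the inbreds, 67% and 1.14%. The median log2 difference, mother-high minus father-high hybrid, was -0.14 over the members, 0.70 over the 965 and 0.20 over all tested probe sets. These shares are side by side only, because the limit under both hybrids bounds the members' differences.

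The marker lists were set beside the reciprocal comparison. The 7 endosperm markers summed to 76900 to 81557 in B73xMo17, 44360 to 55639 in Mo17xB73, 75048 to 78339 in B73 and 37737 to 42398 in Mo17, so the hybrids did not overlap and each stood nearer to its first-written parent. Of the 5 basal transfer layer markers, 3 were matched, and their summed signal per array was 677 to 3438 in B73xMo17, 2411 to 7736 in Mo17xB73, 737 to 5136 in B73 and 1576 to 6874 in Mo17, with overlap between the hybrids. Among them mn1, the cell wall invertase that feeds the young endosperm, averaged 110.7 in B73xMo17, 643 in Mo17xB73, 59.5 in B73 and 529 in Mo17, and bap-3a averaged 8.83 in B73xMo17, 123 in Mo17xB73, 3.71 in B73 and 207 in Mo17. The embryo surrounding region had 1 matched probe set, which reads esr1 and esr2 together, with 106 to 299.8 in B73xMo17, 423 to 735 in Mo17xB73, 38.5 to 229 in B73 and 223 to 995 in Mo17, without overlap of the hybrids. No marker of these last 2 lists read 0 on an array, but the bap-3a means of B73xMo17 and B73 lay below the floor. The embryo markers summed to 3688 to 4549 in B73xMo17, 2907 to 4588 in Mo17xB73, 3562 to 4720 in B73 and 3738 to 4320 in Mo17, and the hybrids overlapped. Most of this sum was ole1, which averaged 3072 in B73xMo17 and 2314 in Mo17xB73. The other embryo markers differed in direction: mlg3 averaged 113 in B73xMo17 and 42.3 in Mo17xB73, and glb1 averaged 851 and 1039. The part of these cells in the differences of the members was not tested.

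The crossing date was tested next, with genotype in the model. By a limma F test with Benjamini-Hochberg adjustment, 2 of the 14 members differed among dates, against 16.6% of all tested probe sets and 18.8% of the 965. ZmAffx.1116.1.A1_at was higher on date 3 in all 4 genotypes, by 1.09 ± 0.10 on the log2 scale over date 1 (SE, limma adjusted p = 2.8e-05), while date 2 minus date 1 was -0.11 ± 0.10. It passed in every setting tried. Zm.6195.1.A1_at differed by -0.35 ± 0.14 on date 2 and 0.22 ± 0.14 on date 3, both against date 1 (limma adjusted p = 0.0421), and missed the threshold in most settings. On the deposited scale 7 members passed, against 6.52% of all probe sets tested on that scale. Over the members the median of date 2 minus date 1 was -0.30, with the lowest value of -0.82 ± 0.24 in Zm.161.3.S1_x_at, and the median of date 3 minus date 1 was -0.13. Over all tested probe sets these medians were 0.04 and 0.05. The median SD of log2 signal within genotypes was 0.36 over the members, 0.22 over the 965 and 0.16 over all tested probe sets.

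Because the hybrid means chose the members, the hybrid level was also read on arrays that did not choose. The choice was repeated on each pair of dates, and the ratio to the higher inbred was read on the date left out. It found 9 probe sets without date 1, 14 without date 2 and 12 without date 3, together 18 different ones. Both hybrids reached 0.8 on the date left out in 5 of 9, 8 of 14 and 8 of 12. The 3 Zm.161 members, Zm.4584.1.A1_at and Zm.930.1.A1_at did so on all 3 dates and recur in each count. These counts are therefore not of independent cases. Among the probe sets that met the inbred conditions on the chosen dates, 3.13%, 2.15% and 3.94% reached 0.8 in both hybrids on the date left out. The median ratio on the date left out was 1.34, 1.19 and 1.04 in B73xMo17 and 0.865, 0.830 and 0.880 in Mo17xB73. The same inbred array serves both ratios on a date, and these are descriptions with no test.

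The readings of single members on the dates left out follow as values only, since all dates entered the choice of the 14. In 6 members the choice was made on every pair of dates, so that each date also entered 2 of their 3 choices: Zm.161.1.S1_a_at, Zm.161.2.S1_x_at, Zm.161.3.S1_x_at, Zm.4584.1.A1_at, Zm.930.1.A1_at and Zm.14798.1.S1_x_at. On the dates left out, Zm.161.3.S1_x_at read 1.46, 4.42 and 1.12 times Mo17 in B73xMo17 and 1.56, 1.99 and 1.32 times Mo17 in Mo17xB73. Zm.14798.1.S1_x_at read 0.865 in B73xMo17 and 0.720 in Mo17xB73 on date 1. Zm.12.1.S1_at read 4.19 in B73xMo17 and 0.691 in Mo17xB73 on date 2. Zm.3714.2.A1_at missed by little, with 0.936 in B73xMo17 and 0.783 in Mo17xB73 on date 1, and 0.972 and 0.790 in these hybrids on date 2. Zm.6195.1.A1_at and ZmAffx.1116.1.A1_at were each chosen on 2 of the pairs and reached the limit in both hybrids on none of the dates left out. Zm.6757.1.S1_at was chosen on no pair of dates.

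**Figure D5:**
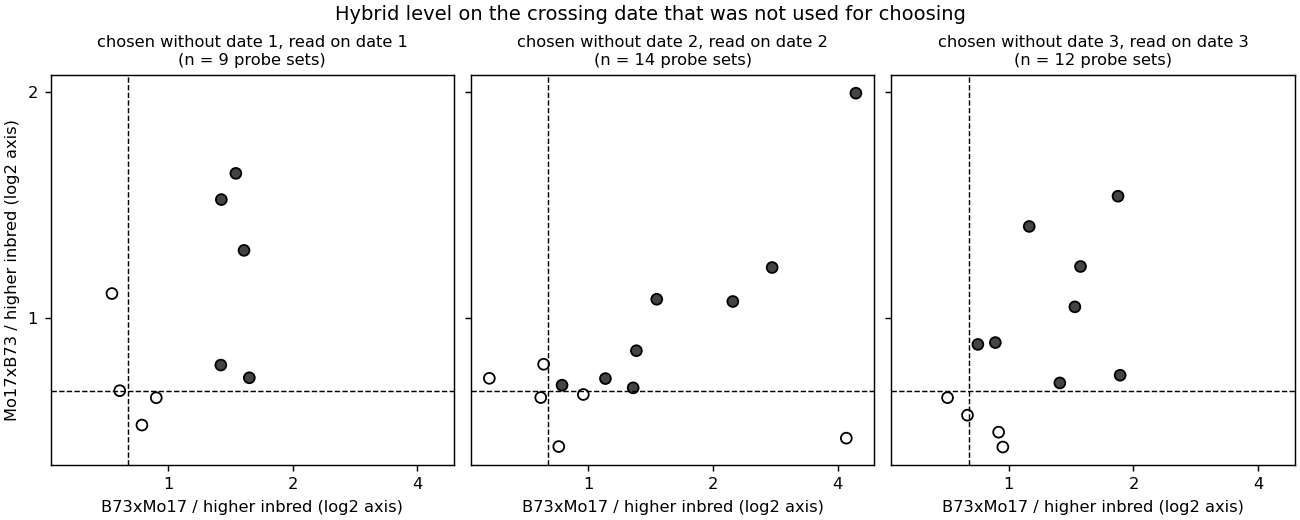
Ratio of B73xMo17 (x axis) and Mo17xB73 (y axis) to the higher inbred on the crossing date that was not used for the choice, on log2 axes, with dashed lines at 0.8; each point is a probe set chosen on the other dates, and filled points reached 0.8 in both hybrids. The filled points number 5 of 9 for date 1, 8 of 14 for date 2 and 8 of 12 for date 3, and the 3 Zm.161 members are among them each time.

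What the members have in common beyond the rule could be read only from their names and the array annotation. The 14 probe sets carry 11 cluster numbers, Zm.161 with 3 and Zm.6195 with 2 of them. The ending _x_at, which marks probes that may match other sequences, was on 4 members, against 7.15% of the 965 and 3.58% of all probe sets, and 3 of these 4 lie in Zm.161 and Zm.6195, beside further members of the same clusters. The annotation joins 1452 probe sets (8.24%) to a single gene, 83 of the 965 (8.60%), and 0 of the 14 members, so no gene name or function is given for any member. The 18 lists of endosperm genes, which hold 551 probe sets and 49 of the 965, therefore hold no member. Of the zeins, the main storage proteins, 10 of 14 probe sets met the conditions on the inbreds, all with B73 higher, and 9 reached the limit in a single hybrid. Of all 17621 probe sets 965 met these conditions, 517 of them with B73 higher, and 254 reached the limit in at least 1 hybrid. The zein whose lower hybrid came nearest was gz50, with 9870 in B73xMo17, 4641 in Mo17xB73, 9776 in B73 and 1975 in Mo17.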

How the data were processed

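Total RNA was taken from 12 endosperm pools (3 per genotype), and biotin-labelled material made from it was hybridised to Affymetrix maize arrays. The authors deposited signal intensity values made with MAS5, per the submitters' processing notes; the sources used here do not give its settings, and pixel data and detection calls were not used. Here 113 control probe sets were left out and each array was scaled to a median of 160. For the fits, values below the pooled 20th percentile (14.9) were set to it. The 10708 probe sets with a mean above the pooled 40th percentile (72.2) were tested, and all 14 members passed this filter. Log2 values were fitted in limma 3.58.1 (R 4.3.3, lmFit, eBayes with trend, 4 genotype means, 8 residual degrees of freedom). The members and gene lists were chosen with earlier results of these data known. Members without a gene name were to be named by signal, inbred ratio, hybrid level or test result; every member is named so that each is accounted for. Per the labels' growth protocol, crosses on 3 dates made the biological replicates, and all genotypes of a replicate were crossed together. Deviations of same-numbered arrays correlated at 0.353, 0.344 and 0.383, and those between numbers at -0.180. The last value is no separate contrast. Deviations from a genotype mean cancel over its 3 arrays, which makes it negative when same-numbered arrays correlate. P-values of the reciprocal comparison measure the spread between pools of a genotype, each from its own date, so pool and date are not separated there. With date in the model, they measure the spread left after date. The limma steps were tested on simulated data with noise independent between arrays and no floor. That check does not cover the correlation of same-numbered arrays.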

Additional observations from a re-analysis of the deposited data

How the results depend on the processing

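The choice held 9 members on the deposited scale without scaling (8 of them among the 14), 37 with a hybrid limit of 0.7, 5 with 0.9 and 4 with 1.0, 28 with an inbred ratio of 2, 9 with a larger inbred mean of 400, 24 without the B73xMo17 arrays of replicates 1 and 2, and 9 to 17 when 1 array or 1 date was left out (9 without Mo17xB73 replicate 3 and 9 without replicate 1). The median log2 ratio of the hybrids to the higher inbred, 0.00 over the members, was 0.065 with quantile normalization, 0.070 with 2% trimmed mean scaling, 0.090 with the median over tested probe sets, 0.046 without those 2 arrays, and -0.11 to 0.18 in the leave-outs. Between the reciprocal hybrids, 3 members were called (2 higher, 1 lower in B73xMo17): 5 (4 higher) with the replicate block; 1 higher on the deposited scale and with no filter; 0 lower with a filter at the 60th percentile, which leaves out Zm.6757.1.S1_at; 1, with 1 higher and 0 lower, without the B73xMo17 arrays of replicates 1 and 2, where the spread comes from the other genotypes and Zm.6757.1.S1_at kept -0.76; and 2 to 5, with 1 to 4 higher, in the leave-outs (5 without Mo17xB73 replicate 1). Only members that were not called turned direction: on the deposited scale Zm.3714.2.A1_at (-0.032) and Zm.6195.1.A1_x_at (-0.26); Zm.6195.1.A1_x_at with quantile normalization (-0.0070), trimmed mean scaling (-0.038) and the tested median (-0.022); without the 2 dim arrays Zm.161.3.S1_x_at (-0.023), Zm.6195.1.A1_at (0.27) and ZmAffx.1116.1.A1_at (0.50). In the leave-outs Zm.161.3.S1_x_at lay between -0.17 and 0.53, Zm.6195.1.A1_x_at between -0.26 and 0.22, Zm.6195.1.A1_at between -0.34 and 0.14, and ZmAffx.1116.1.A1_at between -0.67 and 0.043. For the crossing date, 2 members were called, but 7 on the deposited scale, 1 with trimmed mean scaling, the tested median, no floor, log2(value + 16), no filter, the filter at the 60th percentile, no trend, and without Mo17 or without Mo17xB73, and 1 to 4 when 1 array was left out (4 without B73 replicate 2 and 4 without B73xMo17 replicate 2). The causes of these changes were not tested. Zm.161.1.S1_a_at, Zm.161.3.S1_x_at and Zm.14798.1.S1_x_at were members in all 29 alternatives and Zm.6757.1.S1_at in 15. With 3 arrays a genotype, signals below the floor are bounds only.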

Other observations

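No probe set with a named gene was a member, and the 5 probe sets nearest by their lower hybrid ratio, chosen after their values were seen, fell short in 1 or both hybrids. GAPC, a cytosolic glyceraldehyde phosphate dehydrogenase of glycolysis, averaged 266 in B73xMo17, 344 in Mo17xB73, 366 in Mo17 and 61.7 in B73, which is 0.725 of Mo17 in B73xMo17 and 0.940 in Mo17xB73. UMPS, the uridine monophosphate synthase of pyrimidine synthesis, stood at 0.744 of Mo17 in B73xMo17 and 0.714 in Mo17xB73. The probe set of pep7 stood at 0.697 of Mo17 in B73xMo17 and 0.723 in Mo17xB73. For tub6, a tubulin gene, 1 probe set had 2175 in B73xMo17, 2221 in Mo17xB73, 3151 in B73 and 1180.1 in Mo17, or 0.690 of B73 in B73xMo17 and 0.705 in Mo17xB73. The aquaporin pip2-5 reached 0.837 of B73 in B73xMo17 and 0.686 in Mo17xB73.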
